A study of Rattus norvegicus with 8 samples.

Results

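Genes for the proteins of the cytosolic ribosome were followed on 8 Affymetrix Rat Genome arrays of rat brain. They were taken as the probe sets whose platform annotation gives a single gene symbol made of Rpl or Rps, a number and at most 1 letter, together with Rplp0, Rplp1, Rplp2 and Rpsa. This gave 50 of 31042 probe sets that are not array controls, for 44 of 14217 genes with a probe set of their own, of which 30 belong to the large and 14 to the small ribosomal subunit by symbol. Rplp1 and Rplp2 are not among the 44. Another 33 probe sets name a ribosomal protein gene together with further symbols, and 27 ribosomal protein genes are named by such probe sets alone. These are counted below but not named.

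The RNA came from adult male Wistar rats weighing 250 to 300 g, with injections into the striatum and brain tissue collected 48 hours later. In 1 group (4 arrays) the injection held 5 µl with 50000000 particles of a baculovirus vector, an insect virus used to carry genes into mammalian cells, which had been inactivated by ultraviolet light of 254 nm for 1 hour. The other group (4 arrays) received 5 µl of phosphate-buffered saline (PBS). According to the design text, 7 rats were used and PBS went into the opposite side, but the labels tie no array to an animal, so arrays may share an animal and the p-values measure only the spread between these samples.

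The cytosolic ribosome joins amino acids into protein. Its small subunit reads the messenger RNA, and its large subunit forms the peptide bond and holds the tunnel through which the new chain leaves. Ribosomal protein messenger RNAs are among the most abundant in most cells, neurons and glia included, and are made in balanced amounts. Many of them begin with a C and an unbroken run of pyrimidines, the terminal oligopyrimidine tract, through which TOR kinase signalling and the RNA-binding protein Larp1 set how strongly they are translated. In a bulk tissue a change in the make-up of cells and a change of RNA per cell cannot be told apart.

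The start regions show this shared feature, which the choice of genes did not use. RefSeq windows (GRCr8) were found for 37 of the 44 genes. A C at the annotated start followed by at least 4 bases that are each C or T stood in 11 of the 37 windows, 29.7%, against 2.63% of the 33469 promoter windows in the table. Allowing the tract to begin up to 5 bases to either side of the annotated start gave 19 of 37 windows, 51.4%, against 17.0% of all windows. Only the strand that reads like the RNA was searched. Below, 15 bases before and 15 bases from the start are shown, with the tract in capitals. They are given for 5 genes with it and for Rps27l and Rpl3l, paralogs without it. Its absence is not particular to paralogs, since Rps6, Rpsa and Rpl3 also had no tract within 5 bases. Rplp0 lies at chr12:46718376-46718405 on the minus strand, Rpl22 at chr5:168117946-168117975 on the plus strand, Rpl19 at chr10:83519049-83519078 on the plus strand, Rps15 at chr7:10068101-10068130 on the minus strand and Rpl39 at chrX:121195882-121195911 on the minus strand. Rps27l lies at chr8:76443643-76443672 and Rpl3l at chr10:14258431-14258460, both on the plus strand.
Rplp0: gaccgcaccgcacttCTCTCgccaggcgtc
Rpl22: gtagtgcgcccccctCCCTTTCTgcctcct
Rpl19: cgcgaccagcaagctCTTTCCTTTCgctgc
Rps15: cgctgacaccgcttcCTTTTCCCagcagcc
Rpl39: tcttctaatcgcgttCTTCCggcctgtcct
Rps27l: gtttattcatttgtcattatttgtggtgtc
Rpl3l: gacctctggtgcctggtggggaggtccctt
A window without capitals says only that no such tract stands at the start used in the table, which can differ from the start used in brain.

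Values are intensities on a linear scale that the authors had scaled to a common mean per array. Levels are therefore relative to the rest of each array, and a shift shared by all genes could not be seen. The number of arrays limits the precision. Tests ran on log2(intensity + 16) over the 18625 probe sets above the 40th percentile of mean level. Of the 50 ribosomal protein probe sets 44 passed this level filter, for 40 genes, 27 of the large and 13 of the small subunit. Of those, 40 had mean intensities between 809.9 and 2323, and are called bright below. A mean of 500 or more was reached by 8.81% of all tested probe sets. The other 4 were dim, namely the probe sets of Rpl39 and Rps27l and second probe sets of Rpl3 and Rpl7. No ribosomal protein value exceeded 2674, against 2966 for the highest value of any probe set on any array.

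Markers of striatal neurons, Ppp1r1b and Drd2 among them, were above the level filter in 9 of 9 cases, as were the lists for neurons, astrocytes, oligodendrocytes, microglia and endothelium. T and NK cell markers (0 of 5) and B cell markers (0 of 2) were not. PBS replicate 4 stood apart in the summed intensity of 4 choroid plexus markers, at 136 against 1710 to 2155 on the other 7 arrays. Most of that sum was 1 gene, Ttr, at 47.7 on PBS replicate 4 and 1563 to 1968 on the other 7 arrays. Another of the 4, Kl, was below the level filter. Hybridisation spike-ins were lower on the baculovirus arrays, with a mean log2 level of 7.68 ± 0.324 against 8.33 ± 0.149 (SD, n = 4 each). The exact two-sided permutation p was 0.0286, the smallest that 4 against 4 arrays allow, and 0.114 after Benjamini-Hochberg adjustment over 4 array measures.

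The comparison asked whether ribosomal protein messenger RNAs differ between striatum injected with inactivated baculovirus and striatum injected with PBS. Relative to the common mean of each array, levels of these genes were close to equal in both groups. All 40 bright probe sets had log2 fold changes between -0.09 and 0.06, and their 95% intervals reached at most 0.261 from 0. None of the 44 tested probe sets passed an adjusted p of 0.05 in limma (0 higher and 0 lower, background 0% in each direction), and the smallest adjusted p was 0.737. At an unadjusted limma p under 0.05 the count was 0 of 44, where 6.73% of all tested probe sets reached it (2.51% with higher and 4.22% with lower means). The methods' t-test with a 2-fold change also called 0 of the 44 without adjustment, and it called 0 with Benjamini-Hochberg values. Either way it called 0 of all 18625 tested probe sets, so these counts do not set the members apart. The groups did not overlap for 0 of the 44, against 3.86% of all tested probe sets (1.55% higher and 2.31% lower after baculovirus).

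The median log2 fold change of the 44 probe sets was -0.02, beside 0.01 over all tested probe sets. A higher mean after inactivated baculovirus was found for 13 of the 44 and a lower one for 31, where 53.7% of all tested probe sets were higher, but 23 of the 44 were higher with quantile normalization, 22 with array weights and 5 with median centring. This count also turned with single arrays. It was 35 of 44 without PBS replicate 3, 32 without baculovirus replicate 1, 3 without PBS replicate 2, and 6 and 7 without baculovirus replicate 2 or 4. The large subunit had 9 genes higher and 18 lower with a median log2 fold change of -0.02, and the small subunit 3 higher and 10 lower with a median of -0.03, each gene by its brightest probe set.

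**Figure D1:**
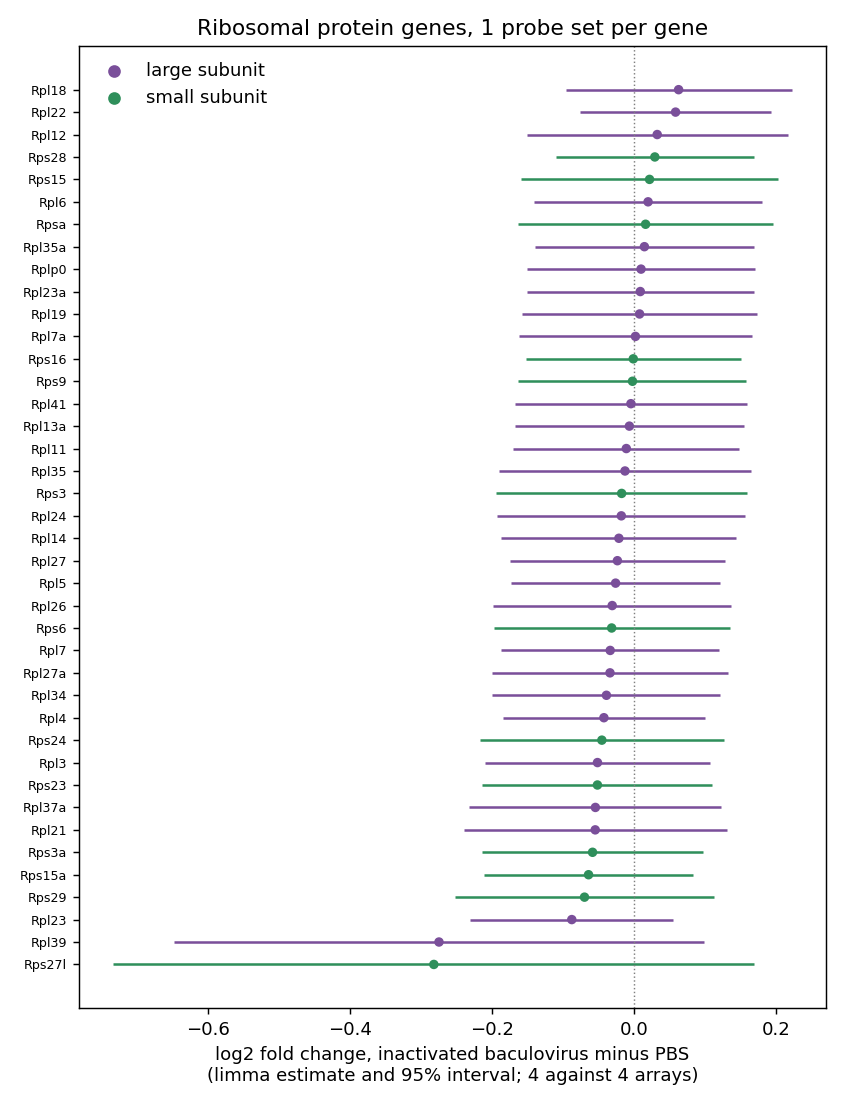
Log2 fold change of inactivated baculovirus against PBS for the 40 tested ribosomal protein genes (points) with 95% limma intervals (lines), large subunit in purple and small subunit in green, ordered by value. Every interval includes 0, and only the dim probe sets of Rpl39 and Rps27l lie below -0.09.

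Among large subunit proteins, Rplp0, the base of the stalk that recruits elongation factors, gave intensities of 1203, 1281, 1211 and 1235 on baculovirus replicates 1 to 4 and 1231, 1073, 1379.5 and 1227 on PBS replicates 1 to 4. The PBS arrays enclosed the baculovirus arrays on both sides. The fitted difference was 0.01 on the log2 scale, with a 95% interval from -0.15 to 0.17 (limma adjusted p = 0.990).

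Rpl22, an RNA-binding protein of the large subunit, gave 1001, 1002, 1001 and 1085 after baculovirus and 988, 918, 1022 and 996 after PBS. Replicate 4 was the highest of all arrays and the other 3 baculovirus arrays lay inside the PBS range. Its log2 fold change of 0.06 ± 0.062 (SE) had the smallest p among genes with higher means and did not pass (limma adjusted p = 0.866). Rpl18 followed at 0.06 ± 0.074, with 1154 ± 63.8 against 1106 ± 96.7 in intensity (SD, n = 4 each). Rpl12, which sits at the base of the stalk beside Rplp0, stood at 0.03 ± 0.085, Rpl6 at 0.02 ± 0.074, Rpl35a at 0.02 ± 0.072 and Rpl23a, at the exit of the peptide tunnel, at 0.01 ± 0.074. With median centring the estimates of Rpl6, Rpl35a, Rplp0 and Rpl23a turned below 0.

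Rpl23, a large subunit protein that also binds the p53 inhibitor Mdm2, had the smallest p among bright genes with lower means. Its intensities were 1276, 1375, 1342 and 1476 after baculovirus and 1508, 1333, 1492 and 1480.3 after PBS. PBS replicate 2 fell inside the baculovirus range and the other 3 PBS arrays lay just above it. The fitted log2 difference was -0.09, with an interval from -0.23 to 0.06 (limma adjusted p = 0.802). Rpl3, close to the peptidyl transferase centre, measured 1519.8 ± 111 against 1575 ± 125 (SD, n = 4 each), Rpl37a 1899 ± 137 against 1977 ± 227 and Rpl4, which lines the exit tunnel, 1227 ± 53.4 against 1265 ± 84.0. Rpl5 and Rpl11, which carry 5S ribosomal RNA into the subunit and can hold back Mdm2, stood at -0.03 and -0.01 in log2 fold change. Rpl13a, which as a free protein takes part in interferon-gamma-dependent silencing of translation, stood at -0.0060.

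Among small subunit proteins, Rps29, a zinc-binding protein of the subunit's head, gave 1950.4, 2373, 2368 and 2373 after baculovirus and 2195, 2155, 2674 and 2494 after PBS. Baculovirus replicate 1 was the lowest of all 8 arrays and PBS replicate 3 the highest. The fitted log2 difference was -0.07, with an interval from -0.25 to 0.11 (limma adjusted p = 0.885), and it was 0.00072 without baculovirus replicate 1. Rps15a stood at -0.06 ± 0.068, Rps3a at -0.06 ± 0.072 and Rps23, a protein of the decoding centre, at -0.05 ± 0.075 (log2 fold change ± SE). Rps6, the target of the S6 kinases downstream of TOR, measured 1745 ± 116 against 1786 ± 173 (SD, n = 4 each), a log2 fold change of -0.03 (interval -0.20 to 0.14). Rps28 stood at 0.03 ± 0.065 and Rps15 at 0.02 ± 0.084, the latter turning below 0 with median centring.

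Rpsa, a small subunit protein also known as a precursor of a laminin receptor, was read by 3 probe sets. The brightest gave 1453, 1551, 1483 and 1582 after baculovirus and 1402, 1332, 1789 and 1509.9 after PBS. PBS replicate 3 was the highest array and PBS replicate 2 the lowest, so PBS again enclosed the baculovirus arrays. The 3 log2 fold changes were 0.02, -0.06 and -0.015 with standard errors of 0.083, 0.091 and 0.087. The estimate of the brightest probe set turned below 0 with median centring, and the mean of the 3 probe sets stood at -0.021 without it.

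**Figure D2:**
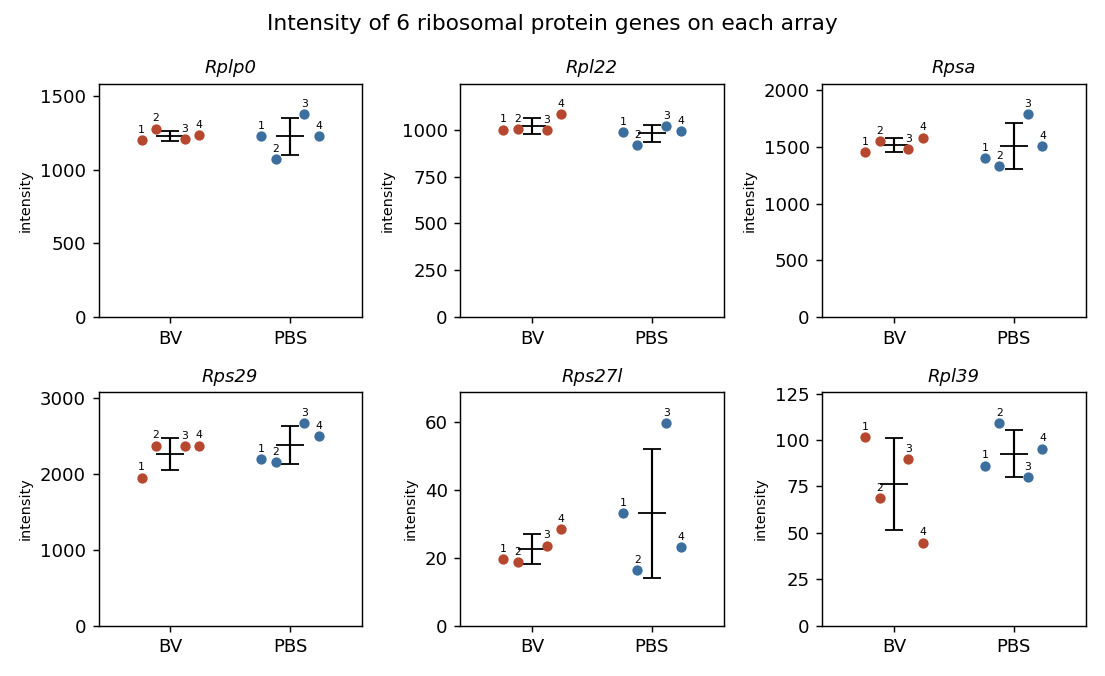
Intensity (linear scale from 0) of 6 ribosomal protein genes on each array, inactivated baculovirus (BV, red) and PBS (blue), with replicate numbers beside the points and mean ± SD as bars (n = 4 each). Groups overlap in every panel, and PBS replicate 3 is the highest array for Rplp0, Rpsa, Rps29 and Rps27l.

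The dim probe sets varied most. Rps27l, a p53-inducible paralog of Rps27, was the member closest above the level filter, which lay at an intensity of about 26.0. It gave 19.7, 18.7, 23.6 and 28.4 after baculovirus and 33.2, 16.5, 59.8 and 23.2 after PBS. PBS replicate 3 was far above all other arrays, and the remaining 7 overlapped. The log2 fold change of -0.28 (interval -0.73 to 0.17, limma adjusted p = 0.797) was -0.05 without that array. Rps27l averaged 22.6 after baculovirus, below the filter, and 33.2 after PBS, so it was tested only through its PBS arrays. Its lower mean after baculovirus and its peak on PBS replicate 3 therefore add no support to the counts of members. Rpl39, a small protein of the exit tunnel, gave 102, 68.9, 89.5 and 44.8 against 86.2, 109, 80.0 and 95.4. Baculovirus replicate 4 was the lowest and PBS replicate 2 the highest, and its log2 fold change of -0.27 (interval -0.65 to 0.10) was -0.09 without baculovirus replicate 4.

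The second probe set of Rpl3 pointed the other way from its brighter partner, while that of Rpl7 had the same direction and a wider spread. That of Rpl3, of a type that can hybridise with related sequences, gave 115, 80.9, 128 and 117 after baculovirus and 46.4, 90.2, 61.5 and 124 after PBS. PBS replicate 4 lay inside the baculovirus range, and PBS replicates 1 and 3 lay below every baculovirus array. Its log2 fold change of 0.44 (interval -0.01 to 0.89) was the largest of all members and had their smallest p (limma adjusted p = 0.737), whereas the brighter probe set stood at -0.05. The second probe set of Rpl7 reached 213 on PBS replicate 3, where the remaining 7 arrays spanned 66.2 to 122. Its log2 fold change was -0.15 (interval -0.64 to 0.34), beside -0.03 for the brighter probe set, which was also highest on PBS replicate 3. The second probe set had the largest residual SD of all tested members (0.450 on the log2 scale, where the median member had 0.115). The 6 members below the level filter were Rpl3l, a striated muscle paralog of Rpl3, at 1.89 on average, the only single-symbol probe sets of Rpl28, Rpl30 and Rps13 at 16.9, 10.2 and 17.0, and second probe sets of Rpl14 and Rps24 at 7.69 and 18.7. Their group means were not tested.

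The members differed by array far more than by group, and they did so together. PBS replicate 3 was the highest of the 8 arrays for 36 of the 44 tested probe sets, where it was highest for 17.7% of all tested probe sets. Of the 40 bright probe sets, which leave out Rps27l, 34 were highest there. Baculovirus replicate 1 (22 probe sets, against 9.33% of all tested) or PBS replicate 2 (18, against 12.5%) was the lowest for 40 of the 44, where these arrays were lowest for 21.9% of all tested probe sets. These arrays were singled out after the values were seen, so the counts are a description. All 40 bright probe sets were above the mean of the other 7 arrays on PBS replicate 3, with a median log2 difference of 0.18. Over all 44 tested members this held for 42, against 51.6% of all tested probe sets. All 40 were below it on PBS replicate 2, with a median of -0.13, and 38 of 40 on baculovirus replicate 1, with a median of -0.15. For all tested probe sets outside the members, most of them dimmer, these medians were 0.0084 on PBS replicate 3, 0.02 on PBS replicate 2 and 0.01 on baculovirus replicate 1. That set still holds the 33 ribosomal protein probe sets with several symbols.

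**Figure D3:**
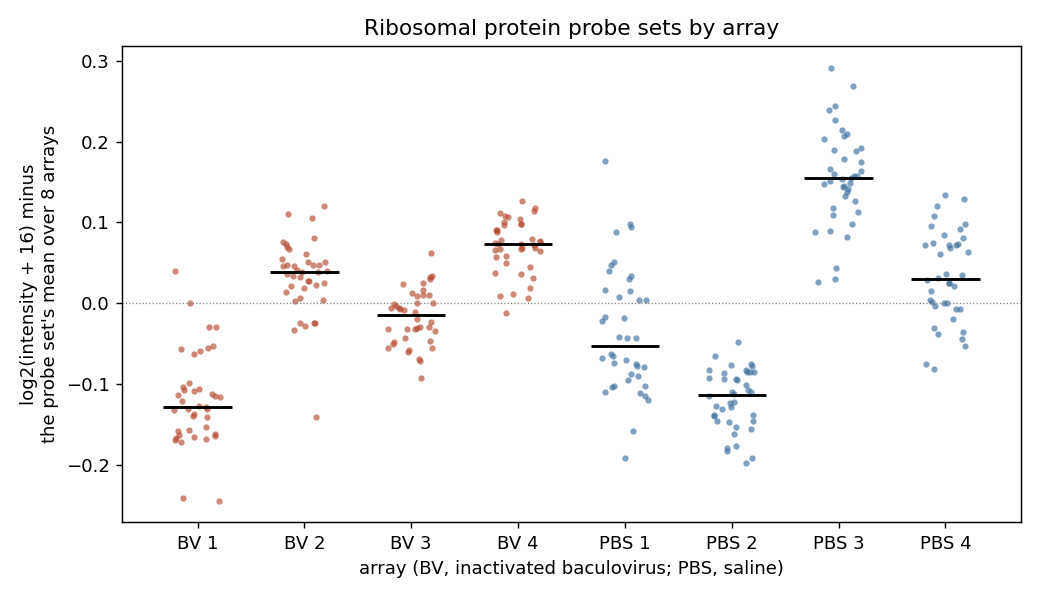
Log2(intensity + 16) of each of the 40 bright ribosomal protein probe sets (points) minus its own mean over 8 arrays, by array, with the median per array as a bar. Points of PBS replicate 3 all lie above 0, those of PBS replicate 2 all below 0, and those of baculovirus replicate 1 mostly below 0, so that the arrays differ within each group.

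The height of PBS replicate 3 differed between members. Among the 40 bright probe sets it was largest for the 3 probe sets of Rpsa, at 0.28 to 0.33 above the other arrays on the log2 scale, followed by Rpl37a at 0.27 and by Rps3, a protein at the entry of the messenger RNA channel, at 0.26. It was smallest among them for Rpl21 at 0.03, Rpl22 at 0.03 and Rps15a at 0.05. The 4 dim probe sets lay outside this range, at 1.02 for the second probe set of Rpl7, 0.96 for Rps27l, -0.04 for Rpl39 and -0.53 for the second probe set of Rpl3. Of the bright probe sets, baculovirus replicate 1 was farthest below the other arrays for Rps29 and Rpl21, each at -0.28, while Rpl22 was at 0.00095 there and 1 probe set of Rpsa at 0.05. Rpl21 was therefore low on baculovirus replicate 1 and close to the other arrays on PBS replicate 3, and Rpsa the reverse.

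The mean level of the 40 genes, with each probe set centred on 0, was -0.12, 0.02, -0.01 and 0.05 on baculovirus replicates 1 to 4 and -0.03, -0.11, 0.16 and 0.04 on PBS replicates 1 to 4. The lowest and the highest array fell in different groups, and the group means differed by -0.03, less than the SD between arrays of either group (0.0748 and 0.115). Large and small subunit genes had the same order at the extremes, with 0.14 and 0.21 on PBS replicate 3 and -0.11 and -0.14 on baculovirus replicate 1. The 33 probe sets with several symbols, which were not used to describe the members, gave -0.13, 0.04, -0.01, 0.09, -0.05, -0.13, 0.14 and 0.04 in the same order of arrays. Of these, 28 were highest on PBS replicate 3 and 32 lowest on baculovirus replicate 1 or PBS replicate 2. Their median log2 fold change between groups was -0.0061, and 0 passed in limma, with 0 at an unadjusted p under 0.05.

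Part of this array pattern was shared with other bright probe sets. The 1601 tested probe sets outside the members with a mean of 500 or more were taken for comparison. They begin below the 809.9 of the least bright of the 40 bright members. Ribosomal protein probe sets with several symbols were not removed from them. The mean levels of the 1601 were -0.07 on baculovirus replicate 1, -0.03 on PBS replicate 2 and 0.02 on PBS replicate 3. By the mean their highest array was baculovirus replicate 4, at 0.04, and not PBS replicate 3. Their median levels were -0.08, -0.04 and 0.07 on these arrays, beside -0.13, -0.11 and 0.15 for the 40 ribosomal protein genes. By the median, PBS replicate 3 was the highest and baculovirus replicate 1 the lowest array in both sets. With quantile normalization, which gives every array the same distribution of values, the ribosomal protein level was 0.0001 on baculovirus replicate 1, -0.05 on PBS replicate 2 and 0.08 on PBS replicate 3. PBS replicate 3 was then highest for 24 of the 44 probe sets (18.1% of all), and baculovirus replicate 1 or PBS replicate 2 lowest for 24 (23.6% of all), 19 of them on PBS replicate 2. The low value of baculovirus replicate 1 was thus absent on that scale, and PBS replicates 2 and 3 remained the extremes.

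Measures of RNA quality were set beside these levels. The log2 difference between 3' and 5' probe sets of beta-actin was 0.36, 0.51, 0.40 and 0.72 on baculovirus replicates 1 to 4 and 0.57, 0.62, 0.46 and 0.41 on PBS replicates 1 to 4. It was lowest on baculovirus replicate 1, the lowest array for ribosomal proteins, and highest on baculovirus replicate 4, with PBS replicates 2 and 3 between them. The same difference for GAPDH was also lowest on baculovirus replicate 1, at -0.11, and stood at -0.05 on PBS replicate 2 and -0.08 on PBS replicate 3, with -0.04 as the highest value, on PBS replicate 1. Microglial markers (6 of 6 above the filter) summed to 1722 on PBS replicate 3 and to 1175 on PBS replicate 2, the highest and lowest of all arrays, but to 1667 on baculovirus replicate 1. Oligodendrocyte markers (4 of 4) were also highest on PBS replicate 3, at 5756, and lowest on PBS replicate 1, at 5170.1. Markers of striatal neurons (9 of 9) and of neurons in general (5 of 5) were lowest on baculovirus replicate 1, at 4677 and 3779.7, and highest on PBS replicate 4, at 6553 and 4409.6. The part of these measures and markers in the array pattern was not tested.

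Other parts of the translation machinery, from lists of translation genes, had no gene past the threshold in either direction. Of 35 initiation factors tested, 19 had higher and 16 lower means, with a median log2 fold change of 0.0042. Eif4g2, a scaffold of cap-independent initiation, gave 907, 858, 903 and 827 after baculovirus and 1074, 1055, 1001 and 979 after PBS. The groups did not overlap, as was so for 3.86% of all tested probe sets, and the log2 fold change of -0.23 ± 0.063 (SE) did not pass (limma adjusted p = 0.686). Averaged over its tested probe sets, Eif4g2 stood at -0.14 (limma adjusted p = 0.795). Pabpc4, a poly(A)-binding protein, stood at -0.17 ± 0.086.

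Of 14 elongation and release factors 8 were higher and 6 lower. Eif5a2 stood at -0.16 ± 0.075 and Eef1a2, the elongation factor 1A form of neurons and muscle, at 0.25 ± 0.19. Its intensity on PBS replicate 3 was 590.2, the remaining 7 arrays spanning 1116 to 1319, so that it was lowest where most ribosomal proteins were highest. Without it the log2 fold change was -0.01.

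Of 39 ribosome biogenesis genes, 22 were higher and 17 lower. Nmd3, the export adaptor of the large subunit, measured 73.6 ± 8.70 against 109 ± 21.4 and Nop14, a factor of small subunit assembly, 32.2 ± 8.96 against 48.3 ± 7.35 (SD, n = 4 each). Neither passed (limma adjusted p = 0.686 for both). Of 14 TOR pathway and S6 kinase family genes 6 were higher and 8 lower. An unadjusted limma p under 0.05 was reached by 5 of the 14, 2 with higher and 3 with lower means, against 6.73% of all tested probe sets, and by 4 of the 39 biogenesis genes, 1 of the 35 initiation factors, 0 of the 14 elongation and release factors and 1 of the 70 mitochondrial ribosome genes. The higher ones were Rptor, the scaffold of TOR complex 1, at 0.19 ± 0.083 and Akt1s1, an inhibitory subunit of that complex, at 0.20 ± 0.084 (log2 fold change ± SE), and groups did not overlap for either. Rps6kb1, the S6 kinase that phosphorylates Rps6, stood at -0.22 ± 0.098. These 3 genes were chosen after their values were seen, and none passed (limma adjusted p = 0.721 for each). Rps6ka5 and Rps6ka3, kinases of the ribosomal S6 kinase family, stood at -0.30 ± 0.10 and -0.25 ± 0.11. Groups did not overlap for Rps6ka5, with 77.1 to 93.3 against 98.9 to 116, and it did not pass (limma adjusted p = 0.686). Of all tested probe sets, 3.86% had groups without overlap. Rpl7l1 and Rsl1d1, a paralog of Rpl7 and a nucleolar relative of ribosomal proteins, stood at 0.05 and 0.01.

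The mitochondrial ribosome is built from separate genes and makes only a few proteins of the respiratory chain. Of its 70 genes, 48 were higher and 22 lower, where 53.7% of all tested probe sets were higher. Their median log2 fold change was 0.03. The mean level of the list differed by 0.04 between groups, less than the SD between arrays of either group (0.105 and 0.131). Mrpl38 measured 140.1 ± 13.6 against 113 ± 24.2 and Mrps2 244 ± 11.4 against 221 ± 27.7 (SD, n = 4 each), and neither passed (limma adjusted p = 0.737 and 0.780). Their levels spread over arrays about as widely as those of the cytosolic ribosome but in another order, with 0.16 on baculovirus replicate 4 and 0.13 on PBS replicate 1 as the highest and -0.16 on PBS replicate 2 as the lowest. Only 4 of these 70 genes were highest on PBS replicate 3. Mean levels of the initiation, elongation and biogenesis lists stayed between -0.05 and 0.07 on every array. The elongation list, which holds Eef1a2, spread more widely by the median over its genes. That median was -0.04 on baculovirus replicate 1, 0.09 on baculovirus replicate 4, -0.10 on PBS replicate 2 and 0.075 on PBS replicate 3.

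**Figure D4:**
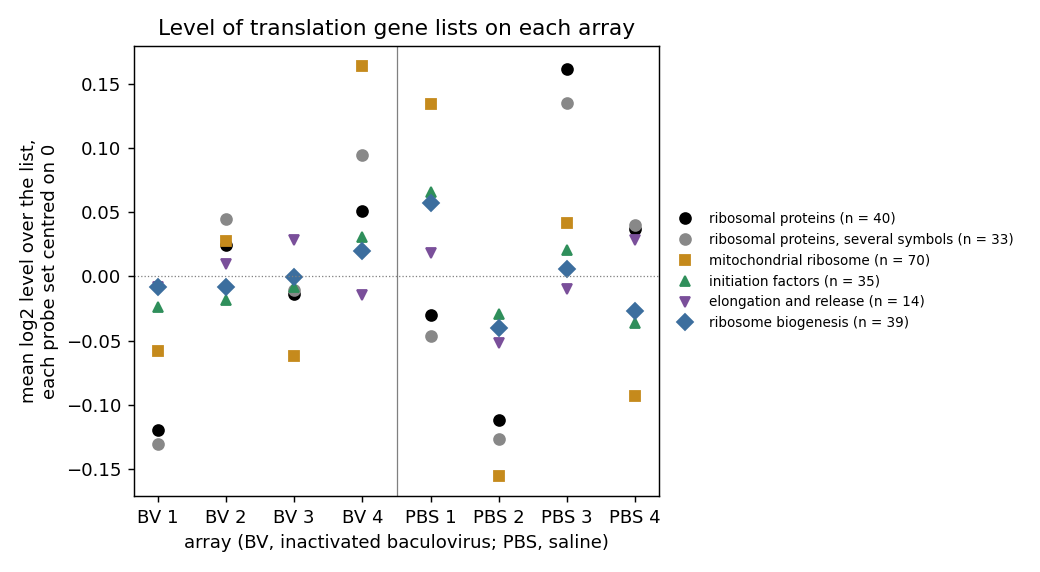
Mean log2 level of 6 lists of translation genes on each array, each probe set centred on its mean over 8 arrays (n, number of probe sets). Cytosolic ribosomal proteins are lowest on baculovirus replicate 1 and PBS replicate 2 and highest on PBS replicate 3, with or without several symbols, whereas mitochondrial ribosomal proteins peak on baculovirus replicate 4 and PBS replicate 1.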

How the data were processed

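Arrays were hybridised with labelled RNA of 8 brain samples, 4 per group, and scanned with GCOS per the submitters' processing notes. Intensities were used as deposited, on a linear scale. They show that the authors scaled each array, since the mean with 2% trimmed at each end lay between 100.021 and 100.023. GC-RMA is also named per the labels, and which algorithm gave the deposited intensities is not stated in those notes. The design text names a pair of labelling kits, and kits are tied to no array.

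Of 31099 probe sets, 57 controls were left out. Symbols came from the platform annotation, and RefSeq changed 0 of those it held for the members (48 of 50 probe sets matched by gene number). A gene was represented by its brightest single-symbol probe set. log2(intensity + 16) was tested without further normalization with limma 3.58.1 in R 4.3.3 (variance trend, two-sided, no block), Benjamini-Hochberg adjusted over 18625 probe sets, threshold 0.05. The script was tested on simulated data. Single array measures were compared by exact permutation.

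Members and lists were chosen with earlier results of these data known. Named are the 10 member genes with the smallest p in each direction, a fixed set of members, genes with several tested probe sets, the 5 members with the largest residual SD, and 2 genes per translation list. Rpl5, Rpl11, Rpl13a, Rpl19, Rpl21, Rps3, Rptor, Akt1s1 and Rps6kb1 were added after their values were seen. Alternatives were other pseudocounts (1, 64), normalizations, level filters, array weights, variance settings, the methods' t-test, a replicate block, a beta-actin covariate and leaving out each array. No protein sequences were used here.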

Additional observations from a re-analysis of the deposited data

Results flagged for a closer look

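Among the genes named and the array measures, 82 groups of 4 arrays were examined for an array standing apart from its 3 partners (a gap to the nearest partner above Dixon's 95% critical share of the range), and chance gives about 1 in 20. This was so for 4 values. Rpl22 was at 1085 on baculovirus replicate 4 and between 1001 and 1002 on the other baculovirus arrays. For Rpl23 it was PBS replicate 2 with 1333, its partners spanning 1480.3 to 1508. Rps29 was at 1950.4 on baculovirus replicate 1 and between 2368 and 2373 on the other baculovirus arrays. The control probe set for 5S ribosomal RNA gave 41.9 on PBS replicate 4, its partners spanning 56.1 to 58.2.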

How the results depend on the processing

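No probe set of a ribosomal protein gene passed the threshold under the alternatives that gave this count, and none of all probe sets under the same ones, except that leaving out cross-hybridising probe sets was counted for the members alone. Averaging a gene's probe sets was run for the named genes alone. The median log2 fold change of the members ran from -0.06 to 0.04 with 1 array left out, moves smaller than the spread of 0.0972 between arrays. The number of members with a higher mean, 13 of 44, ran from 3 to 35 with 1 array left out and was 22 with array weights, 5 with median centring and 23 with quantile normalization. With quantile normalization, chosen for this after seeing the data, 24 members were lowest on baculovirus replicate 1 or PBS replicate 2, instead of 40. The replicate number as a block gave 0 members past the threshold. The median stayed at -0.02, which such a block cannot change, since each number occurs once per group. Same-numbered arrays deviated together at r between -0.0051 and 0.016, so no pairing by number was visible in these values. Sides of the same animal need not deviate together, so this cannot show whether arrays share an animal. Of 712 values of 34 named genes under alternatives, 43 had the opposite sign, for 15 genes, and none passed (smallest limma adjusted p = 0.324). Many of the 712 could not change sign. The level filters, the variance settings, the replicate block and the t-test leave each log2 fold change as it was. Averaging does the same for a gene with 1 tested probe set. The share of reversals is therefore no measure of stability. With median centring Rpl6 was at -0.0084, Rps15 at -0.0063, Rpl35a at -0.014, Rpsa at -0.012, Rplp0 at -0.018, Rpl23a at -0.019 and Rsl1d1 at -0.019. Averaging probe sets gave -0.021 for Rpsa and 0.19 for Rpl3, and quantile normalization 0.0078 for Rps6. With 1 array left out Rps28 ran from -0.0029 to 0.064, Rpl12 from -0.025 to 0.091, Rpl6 from -0.023 to 0.076, Rps15 from -0.025 to 0.096, Rpl35a from -0.028 to 0.062, Rpsa from -0.039 to 0.10, Rplp0 from -0.052 to 0.068 and Rpl23a from -0.026 to 0.053. Likewise Rps29 ran from -0.11 to 0.00072, Rpl3 from -0.086 to 0.00013, Rpl37a from -0.10 to 0.017, Rps6 from -0.075 to 0.016, Rpl7 from -0.076 to 0.0086, Eef1a2 from -0.011 to 0.37 and Rsl1d1 from -0.044 to 0.040. Rps27l and Nop14 have no value with the level filter at the 60th percentile. The cause of these moves was not tested. The mean of Rps27l, 27.9, was close to the level filter at 26.0, which limits what can be read from it. Its mean after baculovirus, 22.6, was under the filter, so it was tested only because of its PBS arrays.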
